A study of Rattus norvegicus with 4 samples.

Results

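The genes described here encode the subunits of the mitochondrial respiratory chain and of ATP synthase, with the cytochrome c genes and the tissue-restricted forms of single subunits. Members were chosen by a rule on names, with earlier results of these data known. They are array probes for genes whose transcript accession, without its version, belongs in RefSeq to a symbol of the rule. Such a symbol begins with Nduf, Uqcr, Atp5 or Cox4 to Cox8, or is Sdha, Sdhb, Sdhc, Sdhd, Cycs, Cyct or Cyc1. The rule took 123 probes for 90 genes, out of 45598 probes and 16581 genes that could be named on the array. RefSeq lists a further 33 genes under these names that are not pseudogenes and had no named probe here, among them Cox7a1, Cox7b2, Atp5mc3, Ndufs6, Ndufa3, Ndufa8, Ndufb1 and Ndufc1, which were not analysed here. The prefix Nduf also takes 7 Ndufaf genes, which encode assembly factors of complex I and no subunits, and the rule takes Cox6c-ps1, which RefSeq calls a pseudogene.

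The samples are 4 RNA preparations of NR8383, an established rat alveolar macrophage line set up from cells washed out of a healthy rat's lungs and grown as a mixture of adherent and floating cells. All 4 belong to 1 group, a water control of 4 h whose sample names add ALI, an abbreviation left unexplained in the labels, in cells passaged 20 times and seeded 48 h before. The design text calls them biological replicates, without stating separate cultures, so the spread between arrays may be partly technical. Other conditions and tissues were not analysed here, so no comparison between conditions was made.

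Each RNA was labelled with the dye Cy3 and read on its own one-colour Agilent array, and all 4 arrays shared 1 slide. Levels are given as the log2 of the processed spot intensity minus the 75th percentile of that array, so 0 stands for the 75th percentile, and as mean ± SD over the 4 arrays. Its intensity was 878 on replicate 1, 932 on replicate 2, 1237 on replicate 3 and 831 on replicate 4, and the 95th percentile of negative control spots lay between 5.54 and 6.03. Between 49.2% and 50.3% of gene spots were well above background. All 9 macrophage markers were detected and 0 of 9 markers of lung epithelium, fibroblasts and T cells were. Probes bind with different strength, so levels of single genes are given side by side without ranking them, and medians over groups of genes are descriptions.

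The respiratory chain passes electrons from NADH (complex I) or succinate (complex II) to coenzyme Q, on through complex III to the small carrier cytochrome c, and from there to oxygen at complex IV, while protons are pumped across the inner mitochondrial membrane and flow back through ATP synthase to make ATP. Most subunits come from nuclear genes that are active in nearly every cell, and several subunits of complex IV and cytochrome c itself have a second gene used mainly in muscle, testis or, for Cox4i2, in lung and at low oxygen. Macrophages depend on the chain to differing degrees as they shift between glycolysis and oxidative metabolism.

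Of the 90 genes, 85 were detected, meaning that at least 1 probe was well above background by the scanner software's flag on 4 of 4 arrays. This share of 94.4% compares with 51.0% of all 16581 named genes. The 5 others were Cox8b and Ndufs4, which were partly detected (on 1 and on 2 arrays), and Cox8c, Cyct and Ndufa4l2, which passed on 0 of 4 arrays. Among the 74 broadly expressed subunit and cytochrome c genes 73 were detected, with Ndufs4 as the exception. The median level of the detected members was 3.34, against -0.50 for all 8456 detected named genes. The samples are bulk RNA, in which fewer cells that express a gene and less RNA per cell cannot be told apart.

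By complex, the detected genes were 32 of 33 for complex I, 4 of 4 for complex II, 9 of 9 for complex III with its cytochrome c1, 15 of 18 for complex IV and 15 of 15 for ATP synthase. All 7 complex I assembly factors and Atp5if1, the inhibitor of ATP synthase, were also detected. Of the 5 genes that fell short, 3 belong to complex IV and 1 each to complex I and cytochrome c, and 4 of these 5 are tissue-restricted or hypoxia-induced forms.

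**Figure D1:**
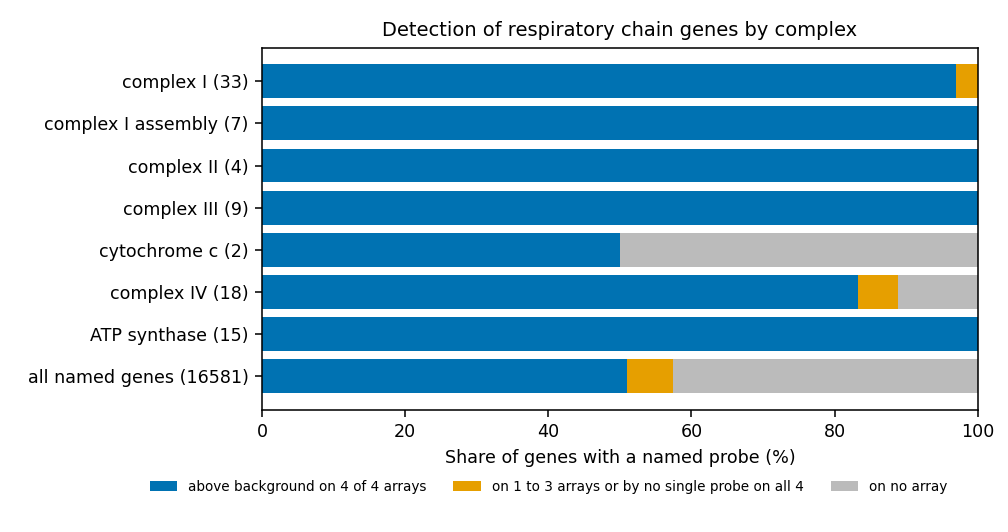
Share of genes (horizontal axis, %) that were detected on 4 of 4 arrays (blue), partly detected (orange) or above background on no array (grey), for each complex and for all named genes, with the number of genes in brackets. Complex IV holds 3 of the 5 genes that were not detected on all arrays, and 15 of its 18 genes were detected.

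The isoform families are described gene by gene, beside the 51.0% of all named genes that were detected. Of the 12 broadly expressed forms listed, 11 had a named probe and all 11 were detected. Of the 9 tissue-restricted forms listed, 7 had a named probe, of which 3 were detected (Cox4i2, Cox6a2 and Cox6b2), 1 was partly detected (Cox8b) and 3 were not (Cox8c, Cyct and Ndufa4l2).

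Cytochrome c has a somatic gene, Cycs, and a testis form, Cyct. The better Cycs probe read intensities of 6186, 6332, 8981 and 5974 on replicates 1 to 4, and its second probe 753, 627, 746 and 667. The brighter Cyct probe read 11.9, 14.0, 6.05 and 10.5, and the other one 4.59, 10.5, 7.35 and 4.74. Every Cycs reading was above background, and no Cyct reading was well above background on any array.

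COX8, a very small membrane subunit of complex IV, has 3 forms on the array. Cox8a, the broadly expressed form, read 36886, 38248, 50300.0 and 46009. Cox8b, the heart and skeletal muscle form, read 16.0, 13.6, 20.7 and 23.0, and passed the background flag on replicate 4 alone. Cox8c, known from testis, read 8.60, 4.36, 4.16 and 3.72 and passed on none. With the positive and significant flag, or with the 95th percentile of negative controls as the limit, Cox8b, Cyct and the complex I gene Ndufs4 counted as detected and Cox8c and Ndufa4l2 as partly detected, so the calls on these dim probes depended on the limit.

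The promoters of both pairs and of the 2 detected restricted forms with the widest spread between arrays (Cox6a2 and Cox6b2) are printed. They are examples of the bases around the transcription start. They are RefSeq windows on the assembly GRCr8, from 250 bases before to 50 bases after the start, 5′ to 3′ on the gene's strand. Cycs lies at chr4:80984718-80985017 and Cyct at chr3:81704352-81704651, Cox8a at chr1:213833574-213833873 and Cox8b at chr1:205408224-205408523, Cox6a2 at chr1:192219667-192219966, all on the minus strand, and Cox6b2 at chr1:78122621-78122920 on the plus strand. Capitals mark matches, on either strand, to 5 motifs: NRF1 (GCANGCGC), GABP (CCGGAAG), YY1 (AAGATGGC), the TATA box (TATAAA) and MEF2 (CTA and TAG with 4 bases of any kind between them). No 2 matches overlap in these windows.
Cycs: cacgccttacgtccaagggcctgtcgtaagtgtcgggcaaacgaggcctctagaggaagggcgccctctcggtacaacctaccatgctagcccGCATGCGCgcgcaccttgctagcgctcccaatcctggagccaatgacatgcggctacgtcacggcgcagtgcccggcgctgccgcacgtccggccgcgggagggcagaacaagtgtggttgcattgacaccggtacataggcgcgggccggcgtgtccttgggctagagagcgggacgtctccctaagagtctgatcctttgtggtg
Cyct: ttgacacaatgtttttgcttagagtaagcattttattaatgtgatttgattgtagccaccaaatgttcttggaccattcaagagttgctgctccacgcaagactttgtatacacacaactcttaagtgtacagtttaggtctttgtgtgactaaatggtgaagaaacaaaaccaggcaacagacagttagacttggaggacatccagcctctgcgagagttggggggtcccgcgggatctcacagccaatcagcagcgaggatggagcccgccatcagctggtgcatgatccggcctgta
Cox8a: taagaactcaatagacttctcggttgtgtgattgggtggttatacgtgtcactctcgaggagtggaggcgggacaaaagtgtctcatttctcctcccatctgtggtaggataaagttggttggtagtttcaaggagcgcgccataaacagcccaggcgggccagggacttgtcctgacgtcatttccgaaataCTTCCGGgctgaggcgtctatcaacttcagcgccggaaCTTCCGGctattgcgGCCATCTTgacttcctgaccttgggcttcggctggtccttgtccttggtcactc
Cox8b: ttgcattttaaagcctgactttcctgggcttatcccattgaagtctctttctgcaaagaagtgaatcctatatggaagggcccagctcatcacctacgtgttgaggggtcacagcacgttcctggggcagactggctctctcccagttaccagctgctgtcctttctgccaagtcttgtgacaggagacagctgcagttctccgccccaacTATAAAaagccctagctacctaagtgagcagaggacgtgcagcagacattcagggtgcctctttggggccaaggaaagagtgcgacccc
Cox6a2: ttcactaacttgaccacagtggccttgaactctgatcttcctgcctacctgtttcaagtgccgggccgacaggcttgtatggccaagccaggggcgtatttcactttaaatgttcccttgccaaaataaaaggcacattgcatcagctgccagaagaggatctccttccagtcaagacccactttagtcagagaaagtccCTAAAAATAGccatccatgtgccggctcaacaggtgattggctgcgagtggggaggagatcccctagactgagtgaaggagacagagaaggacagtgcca
Cox6b2: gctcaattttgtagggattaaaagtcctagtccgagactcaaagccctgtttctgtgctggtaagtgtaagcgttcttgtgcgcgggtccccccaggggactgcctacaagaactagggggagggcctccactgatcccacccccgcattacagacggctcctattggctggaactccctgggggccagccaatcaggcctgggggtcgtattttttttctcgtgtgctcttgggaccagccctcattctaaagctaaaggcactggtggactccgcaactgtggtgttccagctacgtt

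In these windows the Cycs promoter held 30 CpG dinucleotides and 1 NRF1 match, which begins 157 bases before the start. The Cyct window held 7 CpG and no match. Cox8a held 16 CpG, with GABP matches that begin 57 and 19 bases before the start and a YY1 match that begins 4 bases before it. Cox8b held 5 CpG and a TATA match 39 bases before the start. Cox6a2 held 5 CpG and a MEF2 match 50 bases before the start, and Cox6b2 held 10 CpG and no match. Windows that are not printed also went the other way. The general form Cox6b1 held 6 CpG and no match, as did Cox7b, and the testis form Cox8c held 10 CpG and an NRF1 match. A match describes letters in this window and is neither a binding site nor a cause, and the absence of one says nothing about a factor.

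NRF1, GABP and YY1 are transcription factors known for their place upstream of respiratory chain genes, and MEF2 factors act in muscle. A window was found for 78 of the 90 members. NRF1 letters stood in 26 of these 78 windows (33.3%), against 9.1% of all 33469 RefSeq windows of the same length and 19.5% of the 7510 windows of detected named genes. GABP letters stood in 23 member windows (29.5%, against 8.75% and 20.4%) and YY1 letters in 15 (19.2%, against 3.17% and 5.97%). The TATA letters stood in 6 (7.69%, against 14.2% and 7.19%) and the MEF2 letters in 2 (2.56%, against 3.84% and 3.08%), those of Cox6a2 and of the broadly expressed Cox5b. The member windows were also rich in CpG, with a median of 20 against 7 in all windows and 21 in those of detected genes. In the 6 windows of tissue-restricted members the median was 7.5 CpG. NRF1, YY1, TATA and MEF2 letters stood in 1 of these windows each and GABP letters in 0. These shares are descriptions without a test.

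COX4 is the largest nuclear-encoded subunit of complex IV. Cox4i1, its general form, read 67490.3, 67723, 78866 and 61867 on replicates 1 to 4 (6.16 ± 0.12 on the log2 scale). Cox4i2, the lung and low-oxygen form, read 191, 150.2, 211 and 158 (-2.44 ± 0.19) and was well above background on every array.

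COX6A helps hold the complex IV dimer. Its general form, Cox6a1, read 111021, 115932, 134836 and 121157 (6.97 ± 0.17). Cox6a2, the heart and skeletal muscle form, was detected by both of its probes, the brighter one at 349, 344, 728 and 575 and the other at 363, 359.8, 652 and 538. Its log2 levels were -1.33, -1.44, -0.76 and -0.53 by the first probe and -1.27, -1.37, -0.92 and -0.63 by the second. Both probes placed replicates 3 and 4 above replicates 1 and 2, and their deviations from their own means differed by at most 0.13 on any array. Of 10 striated muscle markers 2 were detected, the oxygen store Mb (-3.94 ± 0.34) and the troponin Tnnt2 (-1.40 ± 0.23). The 8 others, among them Ckm, Acta1, Myh6 and Myh7, failed the background flag on every array.

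COX6B sits on the intermembrane side, where cytochrome c docks. The general form Cox6b1 read 284, 321, 495 and 352 and the testis form Cox6b2 read 792, 775, 599 and 541. Both were well above background on all 4 arrays, and since the probes differ in affinity the values do not say which RNA was more abundant. Cox6b2 levels were -0.15, -0.27, -1.05 and -0.62 on the log2 scale, lowest on replicate 3 after scaling (on replicate 4 in the intensities), where Cox6b1 was at -1.32 against a mean of -1.43. Of 10 male germ cell markers 0 were detected, 2 (the protamines Prm1 and Prm2) were partly detected on 3 arrays each, and 8 were not well above background on any.

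NDUFA4 was first assigned to complex I and is now placed in complex IV, and its paralog Ndufa4l2 is induced at low oxygen. Ndufa4 read 10908, 11569, 19070.1 and 13606 (3.81 ± 0.21). Both Ndufa4l2 probes failed the background flag on all 4 arrays, with 4.37, 4.81, 7.65 and 4.35 for the brighter one. Higd1a, another gene known to respond to low oxygen, was detected at -4.83 ± 0.17.

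For the other families only the general form had a named probe. Cox7a2 read 4.24 ± 0.12, and Cox7a2l, which links complexes III and IV into supercomplexes, 4.07 ± 0.072. Cox7b stood at 2.66, 2.63, 2.99 and 3.28 on replicates 1 to 4, with replicates 3 and 4 above the others. The c-ring of ATP synthase, through which protons pass, is encoded by several genes for 1 mature protein: Atp5mc1 was at 6.24 ± 0.088 and the brightest of 4 probes for Atp5mc2 at 5.78 ± 0.059.

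**Figure D2:**
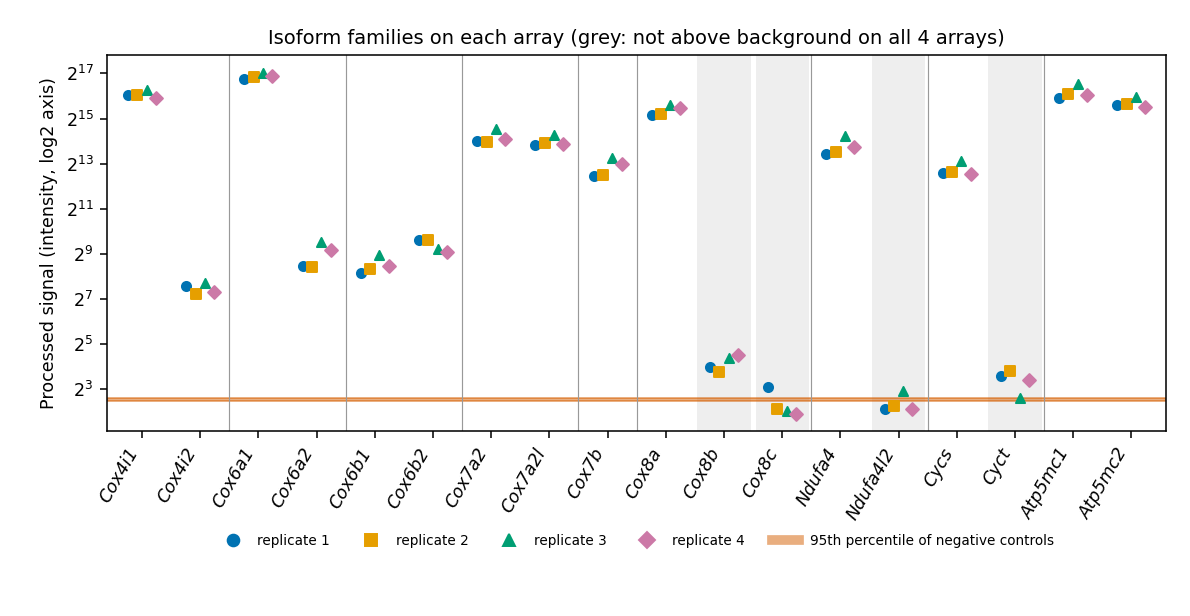
Processed intensity (log2 axis, before scaling) of the brightest probe of each form, 1 point per array, with the 95th percentile of negative controls as a band and grey columns for forms not detected on all 4 arrays. Cox8b, Cox8c, Cyct and Ndufa4l2 have grey columns, while Cox4i2, Cox6a2 and Cox6b2 lie well above background on all 4 arrays.

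Complex I is the entry for NADH, and its catalytic core carries the flavin and the iron-sulphur clusters. The core subunits described here were all detected. Ndufv1, which binds NADH and the flavin, stood at 4.18, 4.14, 3.78 and 4.13 on replicates 1 to 4, with replicate 3 below the 3 others, which lay close together. Its unscaled intensities, 15972, 16411, 16977 and 14567, were highest on replicate 3. The iron-sulphur subunits Ndufv2 (3.30 ± 0.032), Ndufs1 (2.02 ± 0.095) and Ndufs8 (0.97 ± 0.11) were steadier. Ndufs7, which lies near the site where coenzyme Q is reduced, stood at 2.11 ± 0.14, and Ndufs3, another core subunit, at 2.41 ± 0.093.

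The member of complex I that was not detected on all arrays was the accessory subunit Ndufs4, which helps attach the NADH-binding module, with intensities of 12.5, 12.6, 22.2 and 27.3 from its only probe, well above background on 2 of 4 arrays. Among the detected genes of the complex Ndufs5 had the largest spread, at 3.89, 3.83, 3.75 and 3.30, with replicate 4 lowest. Without replicate 4 the log2 distance between its highest and lowest array was 0.14, against 0.59 with it. Ndufc2 had the smallest, at 4.61 ± 0.025. Ndufab1, which is also the acyl carrier protein of mitochondrial fatty acid synthesis, was read at 2.86 ± 0.044 by one probe, while its other probe was well above background on 1 array.

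Ndufa10 and its copy Ndufa10l1 are listed as separate genes. Ndufa10 had intensities of 43.5, 33.4, 46.7 and 42.3 from a probe designed on a predicted transcript, and Ndufa10l1 read 3.28 ± 0.13. Ndufv3 had probes for 2 transcripts, at 1.76 ± 0.025 and 1.16 ± 0.14, and both were detected.

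The 7 complex I assembly factors, which build the complex and are not part of it, had a median level of -0.68, beside 3.40 for the complex I subunits and -0.50 for all detected genes. Their levels ran from -2.32 to 3.34. Ndufaf3 was the steadiest at 0.23 ± 0.04 and Ndufaf7, a methyltransferase, the most variable at -1.07 ± 0.20. For Ndufaf4, 2 of 3 probes were detected.

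Complex II, succinate dehydrogenase, also works in the citric acid cycle and has 4 subunits, all nuclear. The flavin subunit Sdha stood at 2.78 ± 0.057 and the iron-sulphur subunit Sdhb at 2.15 ± 0.05, the smallest spread of the 4. Sdhd, a membrane anchor, stood at 2.99 ± 0.084. Sdhc, the other membrane anchor, stood at 2.20, 2.44, 2.56 and 2.48, lowest on replicate 1.

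All 9 genes of complex III were detected. Cyc1, the haem subunit that hands electrons to cytochrome c, stood at 4.74, 4.73, 4.71 and 4.70, and its SD of 0.016 was the smallest of all 85 detected members. Its other detected probe, at 4.59, had an SD of 0.12, so this steadiness was that of 1 probe. Uqcrfs1, the Rieske iron-sulphur protein, stood at 3.64, 3.83, 3.84 and 3.81, with replicate 1 below the 3 others. The core proteins Uqcrc1 and Uqcrc2 were at 2.22 ± 0.12 and 2.02 ± 0.11. Uqcrh, the acidic hinge protein, had the largest spread in the complex at 2.99 ± 0.17.

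In complex IV, Cox5a had the smallest SD of the detected genes by the brighter of its 2 probes (5.25 ± 0.067), but its other detected probe had an SD of 0.33. Cox7c, a small membrane subunit, was detected at intensities of 29.5, 24.4, 41.0 and 36.1. All of this rests on 1 probe. The pseudogene Cox6c-ps1 was detected by 1 of 2 probes at 32.8, 25.5, 48.3 and 42.7, beside 4.71 ± 0.13 on the log2 scale for Cox6c.

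In the F1 head of ATP synthase, Atp5f1a, the alpha subunit, stood at 6.91, 6.88, 6.42 and 6.75, lowest on replicate 3 after scaling, and both of its probes had that order, while the intensities 105864, 109444, 105853 and 89322 were lowest on replicate 4. The catalytic beta subunit Atp5f1b stood at 3.36 ± 0.12, the central stalk subunits Atp5f1c at 2.79 ± 0.085 and Atp5f1d at 4.35 ± 0.16. Atp5f1e, the small epsilon subunit, had the largest spread of the enzyme at 4.99, 4.94, 4.80 and 4.46, lowest on replicate 4. Atp5mc2 had the smallest by its brightest probe, but its 4 probes had SDs from 0.059 to 0.25. Atp5if1, which blocks the enzyme when it would run backwards, stood at 4.76, 4.48, 4.43 and 4.79, with replicates 1 and 4 above the others after scaling, beside unscaled intensities of 23816, 20796, 26744 and 22994.

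The spread of the members between arrays was small. Their median SD was 0.119, against 0.144 for all 8456 detected named genes, and the highest and lowest arrays differed by more than 2-fold for 0 of 85 members (3.26% of all detected genes). The widest span was 1.88-fold, for Cox6a2. By complex the median SD was 0.0937 for complex I, 0.0703 for complex II, 0.117 for complex III, 0.181 for complex IV and 0.135 for ATP synthase. Members also had the lower median SD without scaling (0.2519 against 0.2673) and after quantile normalization (0.1142 against 0.1395). After normexp with quantile normalization the order was reversed, at 0.1194 for members and 0.1143 for all genes. That setting also changed the background correction and added an offset of 50, and which step reversed the order was not tested. Probes of different brightness have different error, so each gene's variance was also set against that of genes of like signal.

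In that test (limma, with Benjamini-Hochberg adjustment over all 8456 genes) 0 of 85 members were more variable than genes of like signal, where 0.237% of all genes were called. At an unadjusted p under 0.05 there were 4 members, a share below the 6.3% of all genes, and 2 without the trend on signal. The 4 were Cox6a2 (adjusted p 0.450 with limma), Cox6b2 (0.465), Cox7b (0.583) and Ndufs5 (0.687). Without replicate 3 the span of Cox6b2 fell from 1.86-fold to 1.38-fold. The share of members at an unadjusted p under 0.05 in the limma test was above that of all genes in some settings. These were quantile normalization, normexp with quantile normalization, and replicate 3 left out.

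In 3 of 85 members 1 array stood apart from the 3 others by Dixon's ratio of gap to range, beside 6.2% of all detected genes. Cox8a stood at 5.39, 5.36, 5.35 and 5.79 on replicates 1 to 4, with replicate 4 above the rest after scaling, while its intensities were highest on replicate 3. The others were Ndufv1, low on replicate 3, and Uqcrfs1, low on replicate 1, whose values are given with their complexes.

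**Figure D3:**
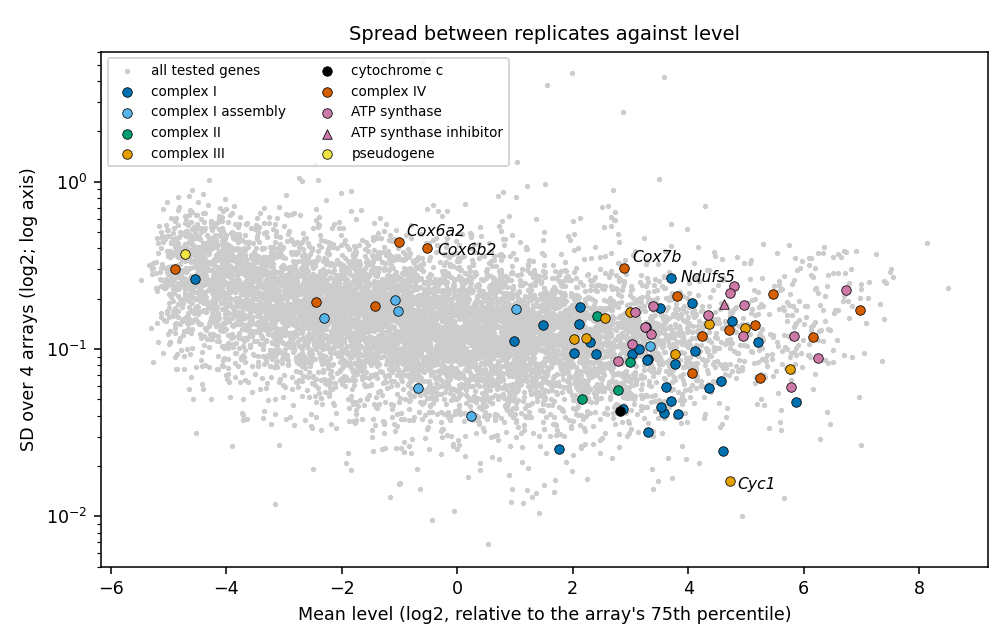
SD over the 4 arrays (vertical log axis, log2 units) against mean level (horizontal axis, log2 relative to the 75th percentile) for all 8456 detected named genes in grey and the 85 detected members coloured by complex. Cox6a2 has the largest SD of the detected members at 0.44 and Cyc1, by its brightest probe, the smallest at 0.016.

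The complexes were also followed array by array, as the median deviation of their genes from each gene's own mean. For the 15 detected genes of complex IV these were -0.01, -0.11, -0.06 and 0.17 on replicates 1 to 4, and 13 of the 15 were above their own mean on replicate 4. For all 8456 detected genes the medians were -0.02, 0.02, -0.03 and 0.04, and 5029 genes were above their mean on replicate 4. ATP synthase stood at 0.11 on replicate 4, with 11 of 15 genes above their mean, and complex I at 0.04. For complex IV the value on replicate 4 was 0.14 after quantile normalization and 0.11 after normexp with quantile normalization. It was -0.04 without scaling, where all detected genes stood at -0.17. The value on replicate 3 turned positive in those 3 settings. No test was run on these medians, which come from genes of the same 4 arrays.

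**Figure D4:**
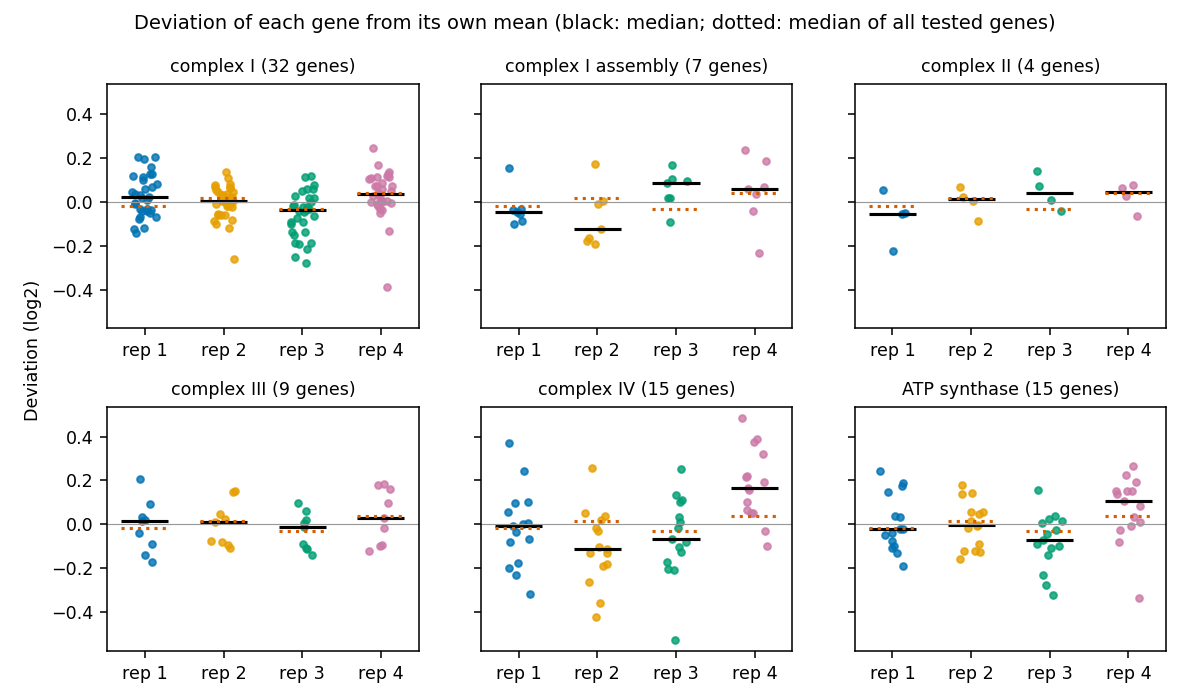
Deviation of each detected member from its own mean over the arrays (vertical axis, log2), by replicate and complex, with black lines for the median of the complex and dotted lines for that of all tested genes. The complex IV median is 0.17 for replicate 4, and the 3 other arrays have medians from -0.11 to -0.01.

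Several probes for a gene gave a check on the values. Of the 90 members 63 had 1 probe and 27 had more, and for these 27 the brightest and dimmest probe differed by a median of 1.40 on the log2 scale. The gap was over 1 for 15 genes and over 4 for 4: Uqcrq (9.41), Ndufab1 (8.89), Ndufaf4 (6.14) and Uqcrb (5.65). Uqcrq and Uqcrb encode small subunits of complex III. For the movement from array to array, the largest difference of deviations between probes had a median of 0.16 among the 25 detected genes with several probes. The movement itself was small, with a median SD of 0.119 and a median span of 1.20-fold over all detected members. The 0.16 therefore does not show that probes of a gene moved together. Detection differed between probes for 3 genes, Ndufab1, Ndufaf4 and Cox6c-ps1. Of the 5 members that were not detected on all arrays, 3 (Cox8b, Cox8c and Ndufs4) had 1 probe only.

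**Figure D5:**
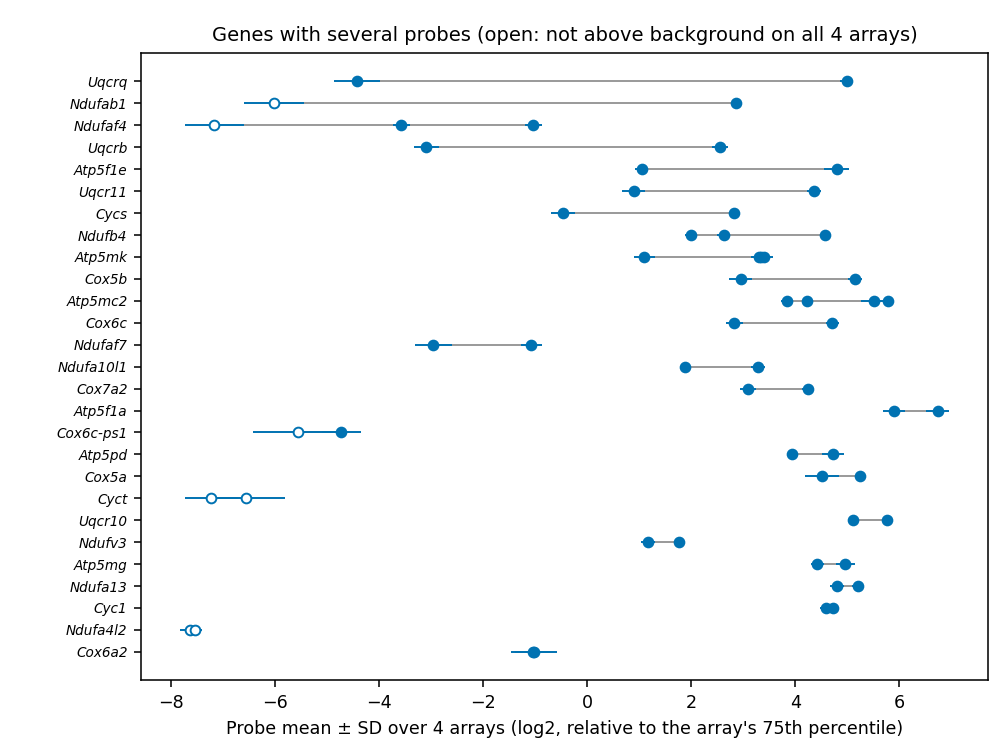
Mean log2 level (relative to the 75th percentile) of each probe of the 27 members with several probes, 1 point per probe with its SD over 4 arrays as a bar, filled where the probe was well above background on 4 of 4 arrays. Probes of Uqcrq lie 9.41 apart and those of Cox6a2 only 0.033.

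One probe for Atp5mc2 was printed at 10 spots per array. After spots marked as outliers were left out, its single spots had an SD of 0.062, 0.032, 0.103 and 0.070 on replicates 1 to 4. The 4 array means of that probe, each over 9 or 10 spots, had an SD of 0.115, which is not a like measure. Over 1044 probes with 5 or more spots the median spot SD was 0.081, 0.090, 0.096 and 0.116. Nearly all member probes were printed at 1 spot, and the median SD of members between arrays was 0.119. The part of it that is error within arrays was not tested. RefSeq names copies or pseudogenes after 47 of the 90 members, and 108 pseudogenes carry such names in all. The share of a probe's signal that comes from them was not tested.

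Of 113 other genes of the pathway that the name rule leaves out, 88 had a named probe and 80 of these were detected. The share of all 16581 named genes detected was 51.0%. All listed genes with a probe were detected for complex II assembly (2), complex III assembly (8), ATP synthase assembly (4), complex I assembly outside the rule (9) and coenzyme Q synthesis (12). For complex IV assembly 16 of 20 were, with Cox11, Cox19 and Cox20 partly detected and Slirp not. The 13 subunits encoded by mitochondrial DNA had no named probe and were not analysed here.

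Among 18 genes for haem attachment and for regulators of the chain, 16 were detected. They include the factors whose letters were searched in the promoters, Nrf1 (-2.42 ± 0.12, detected by 1 of 2 probes), Gabpa (-1.64 ± 0.14) and Yy1 (-3.56 ± 0.23). Tfam, the packaging factor of mitochondrial DNA (0.90 ± 0.21), and the nuclear receptor Esrra (2.93 ± 0.041) are also among the 16. Of the coactivators of this pathway, Ppargc1b was detected (-2.90 ± 0.16) and Ppargc1a was not well above background on any array, nor was Esrrg. Among 12 uncouplers and other entries for electrons 10 were detected. Ucp2, an uncoupling protein family member common in macrophages, stood at 0.73, 1.23, 1.02 and 0.18 (adjusted p 0.255 with limma). Ucp1, the uncoupler of brown fat, and Prodh failed the background flag on every array.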

How the data were processed

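Per the labels' protocols and the file headers, RNA of the 4 samples was labelled with Cy3 and read with Agilent Feature Extraction 11.0.1.1. The deposited values are linear spot intensities, background-corrected by that software per the file headers, with other columns that hold flags of 0 or 1, and not scaled between arrays. Here spots of a probe were averaged on the log2 scale without outlier flags, each array's 75th percentile was subtracted, and a gene took its probe with the highest mean. A probe counted as above background on an array when more than 50% of its usable spots did. Accessions were matched to RefSeq of the assembly GRCr8, used for names and promoter windows, since the array's header names rn4, and 21109 of 45598 probes (46.3%) matched 1 gene.

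Variance was tested with limma 3.58.1 in R 4.3.3 by an intercept-only fit over 8456 detected genes, an upper-tail F test against the eBayes variance with trend and robust fitting, at 0.05 after Benjamini-Hochberg adjustment. On simulated data of 8456 genes it recovered 58% of genes whose SD was 3 times larger and 94% of those with an SD 6 times larger. Each unchanged simulated gene had exactly the SD fitted at its signal, without the scatter between real genes. These shares can therefore overstate what the test finds on these arrays. On the real arrays Cox6a2, with an SD of 0.439 beside a fitted SD of 0.154, had an adjusted p of 0.450 with limma. Python 3.11.15 with pandas 2.3.3, numpy 2.4.6 and matplotlib 3.10.9 did the rest. The genes named are the families with restricted forms, the catalytic cores, members short of detection or with probes that disagree on it, members past the variance test or with 1 array far from the others, and the largest and smallest SD per complex. Some of these are not reported here. A few others (Ndufa10, Ndufa10l1, Ndufv3, Uqcrq, Uqcrb, Cox6c) were named after their values were seen, as were the pathway genes and markers outside the rule. The members and lists were chosen with earlier results of these data known, and the printed promoters and the motifs were chosen after values and windows had been viewed. Alternatives tried were no scaling, quantile and normexp normalization, other detection limits, no filter on dim probes, the mean of probes, outlier spots kept, no trend, and each replicate left out.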

Additional observations from a re-analysis of the deposited data

Results flagged for a closer look

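In 3 of 85 detected members 1 array lay far from the 3 others, measured as its gap to the nearest array divided by the whole range, and passed Dixon's 95% critical value for 4 arrays. Chance marks about 1 gene in 20 in this way, and 6.2% of all 8456 detected genes were marked. Cox8a, the general form of a small complex IV subunit, was high on replicate 4 (ratio 0.897), though its unscaled intensities were highest on replicate 3. Ndufv1, the NADH-binding subunit of complex I, was low on replicate 3 (0.87), where its unscaled intensity was the highest of the 4. Uqcrfs1, the Rieske protein of complex III, was low on replicate 1 (0.841), which also had its lowest unscaled intensity. The 3 genes were marked on 3 different arrays and belong to 3 different complexes.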

How the results depend on the processing

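No paired analysis was possible because the series holds 1 group. The number of detected members was 85 in every run with a replicate left out (85 to 85), 82 when all probes of a gene had to pass and 88 with the 2 looser limits. The 80 other pathway genes detected stayed at 80 to 80 with a replicate left out and ranged from 75 to 83 over the other limits. The share of all 16581 named genes detected moved as well, from 51.0% in the main setting to 46.65% when all probes had to pass. At the looser limits this share was 59.49% by the negative controls and 60.39% by the positive and significant flag. No member passed the limma variance test in any of 12 settings (0 to 0 with a replicate left out), with the smallest adjusted p of a member between 0.192 and 0.982. At an unadjusted p under 0.05 in the limma test there were 4 of 85 members and 533 of 8456 genes. Without scaling these numbers were 2 and 324, after quantile normalization 6 and 477, and after normexp 7 and 528. Without replicate 3 they were 5 of 85 members and 418 of 8478 genes. In the last 3 of these settings the share of members was above that of all genes. Over all genes the calls numbered 20, against 3 without replicate 3, 63 without replicate 2, 51 without replicate 1, 10 without replicate 4 or after quantile normalization, 42 with outlier spots kept, 79 without the filter on dim probes and 4 without the trend. The median SD of members was 0.252 without scaling, where the arrays' overall brightness enters, and 0.0911 to 0.125 with a replicate left out. Members over 2-fold apart numbered 2 of 85 without scaling (Cox6a2 and Ndufs5), beside 834 of 8456 genes. Without the filter on dim probes they numbered 3 of 90 (Cox8c, Cyct and Ndufs4), beside 3909 of 16558 genes. With a replicate left out they numbered 0 to 0. Normexp with quantile normalization moved the level of 45 of 85 members by more than 1 SD. With 4 arrays of 1 group the precision is limited by their number, and the dim probes by their closeness to background.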
